A study of Mus musculus with 2 samples.

Results

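Erythroid cells with dominant haemoglobin RNA were cell barcodes in which at least 75% of all unique molecular identifiers (UMIs, 1 per captured RNA molecule) came from globin genes whose symbols start with Hba- or Hbb-. They also had at least 200 detected genes and at most 20% of UMIs from mitochondrially encoded genes. The barcodes were chosen by these 3 measured values, which are therefore given as a description and not as results. The rule found 2627 barcodes among 49230 in all: 1092 of 27033 in the KO library and 1535 of 22197 in the WT library.

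The KO library came from mice labelled Alb-Cre Bicd2fl/fl, in which an albumin promoter drives Cre and the Bicd2 alleles are floxed, and the WT library from mice labelled Alb-WT Bicd2fl/fl, which carry the floxed alleles as well. Per the series text both received the S-100 model of autoimmune hepatitis, and the treatment protocol gives 2.5 mg of S-100 weekly for 3 weeks into the peritoneum. Immune cells were taken from liver on a Percoll gradient, red cells were lysed with ACK buffer, and living cells were sorted and pooled for 1 library of 3′ single-cell RNA sequencing per genotype. The sample labels name peritoneal immune cells and a high-fat diet instead, and this conflict was not resolved from the sources used here. Ages and the number of pooled mice were not given there. Because each genotype is 1 library, no test between genotypes was possible, and every difference below is between these 2 libraries, with no replicate check.

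Red cells mature from nucleated erythroblasts, which make haem in their mitochondria and load it into globin chains, through cell-cycle exit and loss of the nucleus. The resulting reticulocyte clears its mitochondria and ribosomes by autophagy and ubiquitin-dependent degradation while the spectrin-based membrane skeleton and the band 3 anion exchanger are assembled. RNA in these late cells is therefore mostly globin RNA with a narrow set of erythroid transcripts, and adult livers normally hold few erythroblasts. Nuclei are lost late, so barcodes of this kind may be erythroblasts or reticulocytes.

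The label was checked against its markers that the rule did not count, Alas2 and Slc4a1. Alas2, the erythroid enzyme of the first step of haem synthesis, had a UMI in 99.7% of KO and 99.8% of WT erythroid barcodes, against 14.1% and 7.52% of KO and WT barcodes with under 10% haemoglobin. Slc4a1, which encodes band 3, had a UMI in 73.9% of KO and 62.6% of WT erythroid barcodes, against 1.94% and 0.87% of KO and WT barcodes with under 10% haemoglobin. By all UMIs, median depth in those low-haemoglobin barcodes was 1747.5 in KO and 2462 in WT. The erythroid medians were higher, 2971 in KO and 3448 in WT. By non-haemoglobin UMIs the order was reversed. Medians were 1710.5 in KO and 2439 in WT low-haemoglobin barcodes, and 445 in KO and 410 in WT erythroid ones. With each barcode drawn down to 200 non-haemoglobin UMIs, Alas2 was found in 97.5% of KO and 98.2% of WT erythroid barcodes. The low-haemoglobin shares were then 1.75% in KO and 0.79% in WT. For Slc4a1 these shares were 49.5% in KO and 40.1% in WT, against 0.23% in KO and 0.10% in WT. The markers fitted the label in both libraries. Transcripts of early progenitors were nearly missing: Kit had 2 UMIs in KO and 3 in WT over all erythroid barcodes, and Myb had 0 in KO and 8 in WT. Klf1, an erythroid transcription factor and no progenitor marker, was nearly missing too, with 1 UMI in KO and 4 in WT.

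After the globin UMIs were set aside, a median of 445 UMIs remained per KO erythroid barcode and 410 per WT erythroid barcode, giving 524455 non-haemoglobin UMIs in KO and 675334 in WT. Levels of other genes are counts per 1000000 (CPM) of these non-haemoglobin UMIs, and ratios are log2 of KO over WT after adding 1 CPM. Intervals are 95% exact intervals and cover counting error only, not the spread between mice. The libraries held 63869430 UMIs in KO and 81159013 in WT, shared 177 barcode sequences, and shared none among erythroid barcodes of both. Bicd2 had 10 UMIs in KO and 6 in WT erythroid barcodes; the albumin promoter is active in hepatocytes, so these counts do not check the deletion.

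The 2 libraries differed in how haemoglobin-rich barcodes were distributed. Erythroid barcodes were 6.18% (5.83 to 6.54) of the 17675 KO barcodes and 7.61% (7.25 to 7.99) of the 20167 WT barcodes that met the gene and mitochondrial limits. Without the limit on genes, 10326 KO barcodes (38.2%) and 3387 WT barcodes (15.3%) reached 75% haemoglobin, so 9234 KO and 1852 WT barcodes were left out for having under 200 genes. The rule therefore kept 10.6% of such barcodes in KO and 45.3% in WT. These shares do not rest on an equal depth floor. Among the barcodes left out, the lowest total was 1148 UMIs in KO and 1537 in WT, with medians of 1564 and 2320.5. What this contributed to the difference in numbers was not tested. Barcodes just outside the haemoglobin limit, at 70% to under 75%, numbered 187 in KO and 31 in WT, and those just inside, at 75% to under 80%, numbered 224 in KO and 33 in WT. At the limit on genes, 358 KO and 223 WT haemoglobin-rich barcodes lay up to 10 genes below it, and 272 KO and 219 WT ones lay at it or up to 9 genes above. Median haemoglobin share among the erythroid barcodes was 84.6% in KO and 87.6% in WT. Between 10% and 75% haemoglobin lay 5771 KO and 1966 WT barcodes, a continuum in KO that had no clear gap below the limit.

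**Figure D1:**
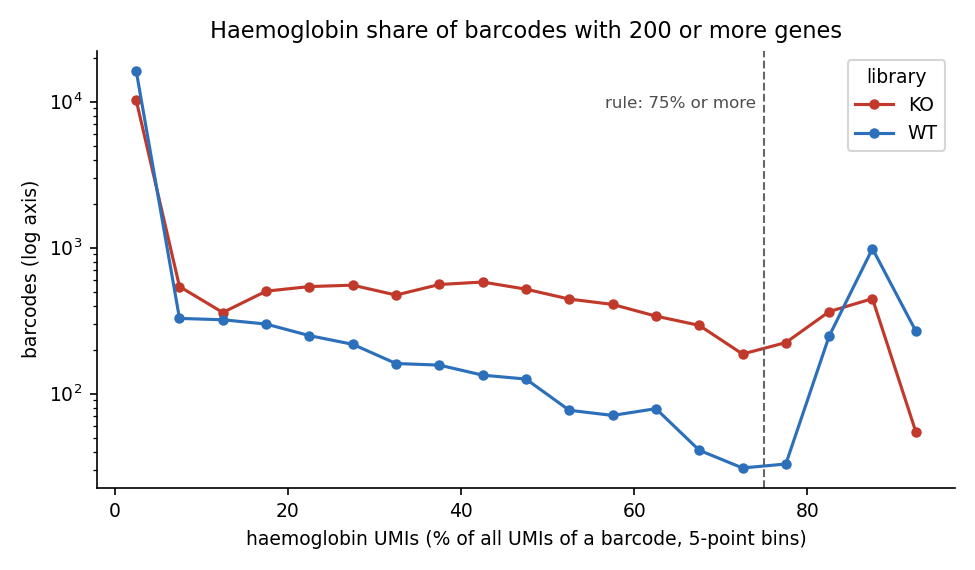
Number of barcodes with at least 200 genes (log axis) in each 5-point range of haemoglobin UMIs as a percentage of all UMIs, for the KO and the WT library. The WT line has a separate peak of 985 barcodes at 85% to 90%, where KO has 448, while the KO line stays high at intermediate shares, with 520 barcodes at 45% to 50% against 126 in WT.

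Alpha globin UMIs exceeded beta globin UMIs in the KO library and were below them in the WT library. Adult mouse haemoglobin pairs alpha chains, from Hba-a1 and Hba-a2, with beta chains, which Hbb-bs and Hbb-bt encode in strains of the single haplotype. Hba-a1 made up 26.8% of globin UMIs in KO and 22.8% in WT, and Hba-a2 24.8% in KO and 19.1% in WT. Hbb-bs made up 36.5% in KO and 46.7% in WT, and Hbb-bt 11.9% in KO and 11.3% in WT. The genes of each pair are nearly identical in sequence. The split between Hba-a1 and Hba-a2, and between Hbb-bs and Hbb-bt, therefore depends on how the counting assigned reads and is uncertain. Whether read assignment also moved the alpha and beta totals, and so which of them was larger in a library, was not tested.

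The ratio of alpha to beta UMIs was 1.07 (1.064 to 1.069) in KO and 0.723 (0.7216 to 0.7242) in WT. Barcode by barcode, the median ratio was 1.11 in KO, with 5% and 95% points of 0.804 and 1.43, and 0.720 in WT, with points of 0.587 and 0.904. Alpha exceeded beta in 731 KO barcodes (66.9%) and in 13 WT barcodes (0.847%), though the whole ranges overlapped, from 0.589 to 2.04 in KO and from 0.396 to 1.35 in WT. The KO distribution was also wider, with a shallow dip. In bins of 0.05, 95 barcodes (8.70%) lay in the bin from 0.95, 77 (7.05%) in that from 1.00, and 116 (10.6%) in that from 1.15. Whether KO had 2 peaks was not tested, and the dip rests on the counts of single bins. WT had a single peak, with 328 barcodes (21.4%) in the bin from 0.70. The number of pooled mice was not given, and barcodes could not be assigned to mice.

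The difference was present in each range of haemoglobin share. Between 75% and 85% haemoglobin the ratio was 1.12 in KO and 0.729 in WT, and between 85% and 95% it was 1.03 in KO and 0.722 in WT. It was also present outside the rule: in haemoglobin-rich barcodes with under 200 genes the ratio was 1.05 in KO and 0.684 in WT, in barcodes with 10% to under 75% haemoglobin 0.883 in KO and 0.663 in WT, and in those with under 10% haemoglobin, where globin RNA need not come from the barcoded cell, 0.981 in KO and 0.743 in WT. The minor alpha-like genes gave no common direction: Hbq1b had 260 UMIs in KO and 379 in WT (log2 −0.18) and Hbq1a 94 in KO and 86 in WT (log2 0.49). All other Hba- and Hbb- genes, the embryonic ones included, summed to 3 UMIs in KO and 0 in WT.

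**Figure D2:**
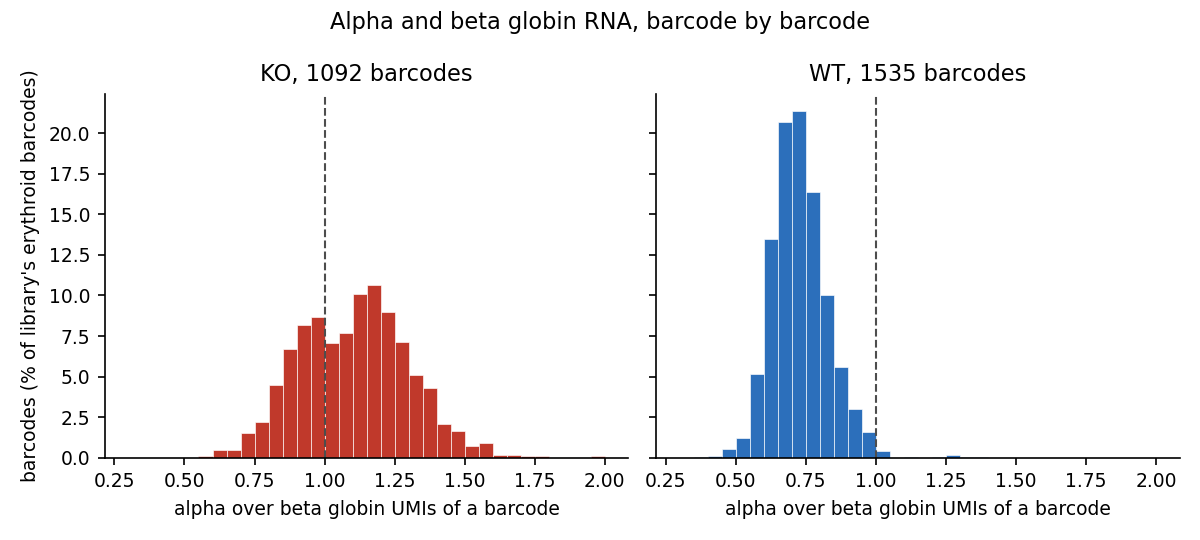
Share of each library's erythroid barcodes (%) by the ratio of alpha to beta globin UMIs in bins of 0.05, KO on the left and WT on the right; the dashed line marks equal alpha and beta. KO barcodes centre on 1.11 and are spread more widely than WT barcodes, which centre on 0.720 with 1 peak. Outside the plotted range lie 2 KO barcodes.

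The sequences just before the starts of the main beta and alpha genes hold short motifs known from erythroid genes, and are printed for comparison with those of the Apol genes further on. The 250 bases before each RefSeq gene start (build GRCm38.p6) are printed 5′ to 3′ on the gene's strand. Capitals mark AGATAA and TGATAA, the letters that GATA factors prefer, CCACACCC, a letter string that Klf1 binds, and GAAA followed by any 2 bases and GAAA (the GAAA pair), the core of interferon-stimulated response elements, on either strand; an opposite-strand match is seen as its reverse complement. Hbb-bs lies at chr7:103827929-103828178 on the minus strand and Hba-a1 at chr11:32283422-32283671 on the plus strand.
Hbb-bs: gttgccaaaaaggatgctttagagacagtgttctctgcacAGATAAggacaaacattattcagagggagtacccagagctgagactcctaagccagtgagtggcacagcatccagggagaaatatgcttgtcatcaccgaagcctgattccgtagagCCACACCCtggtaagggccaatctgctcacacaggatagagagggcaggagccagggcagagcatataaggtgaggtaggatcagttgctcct
Hba-a1: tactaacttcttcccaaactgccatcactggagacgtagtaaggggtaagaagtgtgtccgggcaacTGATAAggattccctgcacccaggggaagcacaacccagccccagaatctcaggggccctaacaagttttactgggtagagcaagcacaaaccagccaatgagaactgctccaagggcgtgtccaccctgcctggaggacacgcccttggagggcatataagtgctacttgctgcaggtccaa
Counting −1 as the last base before the start, Hbb-bs had AGATAA from −210 and CCACACCC from −93, and Hba-a1 had TGATAA from −183. Among 32851 such windows of the mouse annotation, 9.99% held AGATAA, 7.94% TGATAA, 3.20% CCACACCC and 2.98% the GAAA pair. A match is a description of these letters and not a binding site.

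For genes outside the globins, 4709 had at least 20 UMIs summed over both libraries and were compared. Of these, 309 (6.56%) were at least 2-fold higher in KO and 609 (12.9%) at least 2-fold lower, with a median log2 ratio of −0.08. This balance rests on the scaling: the higher genes were 33.7% of both kinds here, 44.0% with TMM scaling (401 higher, 511 lower) and 63.0% when each barcode's globin UMIs stayed in the total (407 higher, 239 lower), which moved the median of all genes to 0.17. Genes with at least 4-fold higher levels, as CPM + 1, in erythroid than in low-haemoglobin barcodes of both libraries, chosen on these values and called erythroid-high genes here, numbered 286 and held 57.5% of non-haemoglobin UMIs in KO and 53.8% in WT. Of them 13 (4.55%) were at least 2-fold higher in KO and 7 (2.45%) at least 2-fold lower. A gene had to pass the 4-fold limit in both libraries, which leaves out genes that are low in one of them, so nothing is read from these 2 counts.

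Haem synthesis genes lay near an equal level in the 2 libraries. Of 17 listed genes with 20 UMIs, of 22 in the list, none was at least 2-fold higher and 1 was at least 2-fold lower, and the median log2 ratio was 0.02, with −0.32 to 0.56 over the alternatives. Alas2 had 11611 UMIs (22139 CPM) in KO and 14696 UMIs (21761 CPM) in WT, a log2 ratio of 0.02, which became −0.68 with a haemoglobin limit of 50% and 0.31 with 90%. Fech, the ferrochelatase that inserts iron in the last step, had 5951 CPM in KO and 4196 in WT, a ratio of 1.35 to 1.49 by its interval. Slc25a39, the mitochondrial glutathione carrier, had 6778 CPM in KO and 4504 in WT (log2 0.59). Cpox, an oxidase of a later step, lay the other way, with 103 UMIs in KO and 187 in WT (log2 −0.49). The gene past 2-fold was Alas1, the housekeeping form of the first enzyme, with 6 UMIs in KO and 21 in WT.

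Iron genes likewise showed no common direction. Of 11 genes with the minimum, of 17 listed, none was at least 2-fold higher and 1, Ireb2, was at least 2-fold lower (6 UMIs in KO, 17 in WT), with a median of −0.30 that became −0.02 when scaled to all UMIs and 0.26 with a haemoglobin limit of 90%. Slc25a37, the mitoferrin that imports iron into mitochondria, had 16692 CPM in KO and 12766 in WT (log2 0.39). Tfrc, the transferrin receptor that erythroblasts lose as they mature, was lower, at 147 CPM in KO and 247 in WT (log2 −0.75, ratio interval 0.45 to 0.78). Blvrb, biliverdin reductase B, had 754 UMIs in KO and 1658 in WT (log2 −0.77). The ferritin genes Fth1 and Ftl1 each had a log2 ratio of 0.15.

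The red-cell membrane and skeleton list, which covers band 3, spectrins, ankyrin and blood group proteins, had a median of 0.06 over 25 of its 31 genes, with 2 at least 2-fold higher in KO and 0 lower. Over the alternatives the median ranged from −0.67 to 0.46. Epb41, protein 4.1, had 6489 UMIs in KO and 8526 in WT (log2 −0.03). Slc4a1 had 1972 UMIs (3760 CPM) in KO and 2033 (3010 CPM) in WT, a ratio of 1.17 to 1.33. That order turned round to −0.50 with a haemoglobin limit of 50% and to −0.66 with at least 300 genes. The 2 genes past 2-fold were sparse: Cd59a, an inhibitor of complement lysis, had 41 UMIs in KO and 15 in WT, and Xk, a membrane protein that carries a blood group antigen in human, 16 in KO and 5 in WT.

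Erythroid transcription factors were mostly too rare to order. Of 15 with the minimum, of 19 listed, 1 was at least 2-fold higher and 2 at least 2-fold lower (median 0.06). Gata1, the master regulator of the lineage, had 5 UMIs in KO and 15 in WT, and Bach1, a haem-sensing repressor, had 7 in KO and 21 in WT. Bcl11a, a repressor of embryonic and fetal globins that B cells also express, had 26 in KO and 15 in WT. Its level in low-haemoglobin barcodes was also higher in KO, 201 CPM against 105 in WT, and what that contributed was not tested. The better measured factors were close: E2f2, which acts in cell-cycle exit of erythroblasts, had 456 UMIs in KO and 550 in WT (log2 0.09), and Foxo3, which drives late antioxidant and autophagy genes, 194 in KO and 185 in WT (log2 0.43).

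Genes of late maturation were abundant in both libraries and within 2-fold throughout the list: of 27 with the minimum, of 30, none was 2-fold higher or lower, and the median was 0.06, with −0.52 to 0.35 over the alternatives. They held 11.9% of non-haemoglobin UMIs in KO and 11.7% in WT. Tent5c, a noncanonical poly(A) polymerase, had 20736 CPM in KO and 15147 in WT (log2 0.45). Bnip3l, the mitophagy receptor needed for clearing reticulocyte mitochondria, had a log2 ratio of 0.08, and Ube2o, which tags ribosomal proteins for degradation, one of 0.06. Ube2l6, a conjugating enzyme for ubiquitin and ISG15, was lower, with 5109 UMIs in KO and 9210 in WT (log2 −0.49), as was Ubb, a ubiquitin gene (log2 −0.54). The antioxidant and gas-exchange list had 0 genes at least 2-fold higher and 3 at least 2-fold lower of 15 with the minimum, of 19. Those 3 were Hspa8, a constitutive chaperone (73 UMIs in KO, 222 in WT), Txn1, thioredoxin (60 in KO, 158 in WT), and Glrx, glutaredoxin (11 in KO, 34 in WT), while its abundant members were near level or higher: Gpx1, a glutathione peroxidase, had 30700 CPM in KO and 25978 in WT (log2 0.24), and Car2, carbonic anhydrase 2, a log2 ratio of 0.44.

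Cell division genes split. Of 18 with the minimum, of 34 listed, 0 were at least 2-fold higher and 12 at least 2-fold lower in KO (median −1.41), and the same list had a median of −1.55 in low-haemoglobin barcodes. With a haemoglobin limit of 90% the median was −0.14, and with 50% it was −0.72. Mki67 had 25 UMIs in KO and 81 in WT, Top2a 22 in KO and 80 in WT, and Stmn1, a tubulin-binding protein of dividing cells, 5 in KO and 55 in WT. Of the 18, 5 lay above 0, among them Ube2c, the conjugating enzyme of the anaphase-promoting complex. It had 1371 UMIs (2614 CPM) in KO and 1095 (1621 CPM) in WT, a ratio of 1.49 to 1.75, and had a UMI in 59.3% of KO and 43.0% of WT barcodes. Its level in low-haemoglobin barcodes was 30.8 CPM in KO and 130 in WT, so in the erythroid barcodes it stood far above those of other cells. Nusap1, a spindle protein, had 671 UMIs in KO and 668 in WT (log2 0.37). Early erythroid and erythropoietin-signalling genes were rare as well, with 11 of 21 reaching the minimum, 0 at least 2-fold higher and 2 at least 2-fold lower: Cish, a feedback inhibitor of cytokine receptors, with 13 UMIs in KO and 41 in WT, and Npm1, a nucleolar protein, with 28 in KO and 86 in WT.

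Among erythroid-high genes above 1000 CPM in either library, Apol11b had the largest ratio in either direction. The limit of 1000 CPM leaves out Apol11a, an erythroid-high gene with a log2 ratio of −3.79. Apol11b belongs to the mouse apolipoprotein L cluster on chromosome 15, related to the human gene for the trypanosome-killing serum protein. Apol11b had 1273 UMIs (2427 CPM) in KO and 9545 UMIs (14134 CPM) in WT, a ratio of 0.172 (0.162 to 0.182) and a log2 ratio of −2.54. It ranked 8th by UMIs among non-globin genes in WT and 68th in KO. UMIs count 3′ ends, so these ranks need no division by transcript length. Its level was far lower in other barcodes, with 5.50 CPM in KO and 10.9 CPM in WT barcodes of under 10% haemoglobin and 198 CPM in KO and 648 CPM in WT at 10% to under 75%. Its log2 ratio stayed between −3.35 and −2.11 in all 13 alternatives that gave it a value.

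Both the share of barcodes with an Apol11b UMI and the mean UMIs per barcode were lower in KO. A lower level by itself also lowers the share with a UMI, so these are not separate findings. No UMI was found in 644 KO barcodes (59.0%) and 77 WT barcodes (5.02%), 1 to 3 UMIs in 324 KO (29.7%) and 452 WT (29.4%), and 4 or more in 124 KO (11.4%) and 1006 WT (65.5%). The highest was 13 UMIs in KO and 36 in WT. Means over all barcodes, those with 0 UMIs included, were 1.17 in KO and 6.22 in WT. When every barcode was thinned to 200 non-haemoglobin UMIs, 28.2% of KO (25.6 to 31.0) and 84.9% of WT barcodes (83.0 to 86.6) still held one, against 0.29% of KO and 0.25% of WT low-haemoglobin barcodes thinned alike. KO barcodes without Apol11b and those with 4 or more UMIs had near alpha to beta medians, 1.11 and 1.10. Their Alas2 levels were 21731 and 22981 CPM. Other genes differed more between these KO barcodes, with Isg15 at 2309 and 3160 CPM, Pabpc1 at 18068.5 and 23564, and S100a8 at 1950 and 782. In the same classes of WT barcodes the alpha to beta medians were 0.713 and 0.721. Slc4a1 was at 1158 and 3347 CPM there, and Isg15 at 2249 and 4104. Within 75% to 85% haemoglobin Apol11b had 2088 CPM in KO and 14012 in WT, and within 85% to 95% it had 2814 in KO and 14166 in WT.

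**Figure D3:**
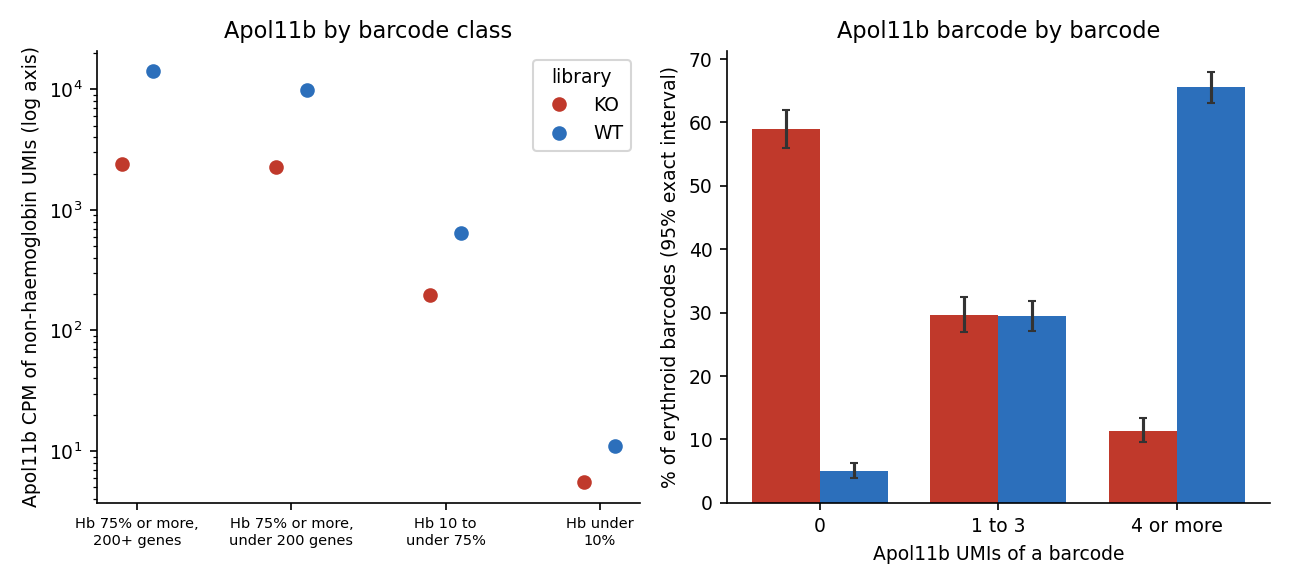
Left, Apol11b level (CPM of non-haemoglobin UMIs, log axis) in 4 classes of barcodes by haemoglobin share and gene number, KO left of WT; right, share of erythroid barcodes (%, with 95% exact intervals) by their Apol11b UMIs. KO lies below WT in all 4 classes, and 59.0% of KO barcodes hold no Apol11b UMI, against 5.02% of WT barcodes.

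Both near relatives of Apol11b were lower too. Apol11a had 15 UMIs in KO and 276 in WT, a ratio of 0.070 (0.039 to 0.117), and Apol10a had 4 in KO and 38 in WT, a log2 ratio of −2.73. Reads of so similar genes can be split by the counting, so the 2 Apol11 genes were also summed: 1288 UMIs in KO and 9821 in WT, a ratio of 0.169 (0.159 to 0.179). Every other Apol gene had at most 5 UMIs in either library. The windows of the 3 genes, with that of Alas2 for comparison, are shown because the genes were lower together and share sequence; capitals are as above. Apol11b lies at chr15:77643287-77643536 on the minus strand, Apol11a at chr15:77508019-77508268, Apol10a at chr15:77476797-77477046 and Alas2 at chrX:150547167-150547416, all 3 on the plus strand.
Apol11b: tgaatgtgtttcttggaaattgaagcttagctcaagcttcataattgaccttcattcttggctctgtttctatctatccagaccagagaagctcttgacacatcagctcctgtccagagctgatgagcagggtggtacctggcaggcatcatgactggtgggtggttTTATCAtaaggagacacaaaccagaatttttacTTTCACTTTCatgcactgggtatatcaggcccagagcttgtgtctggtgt
Apol11a: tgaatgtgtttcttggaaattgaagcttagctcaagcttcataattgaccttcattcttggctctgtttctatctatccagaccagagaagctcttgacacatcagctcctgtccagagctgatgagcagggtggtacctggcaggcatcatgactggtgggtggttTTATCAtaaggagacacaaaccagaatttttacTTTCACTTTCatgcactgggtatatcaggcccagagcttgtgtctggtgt
Apol10a: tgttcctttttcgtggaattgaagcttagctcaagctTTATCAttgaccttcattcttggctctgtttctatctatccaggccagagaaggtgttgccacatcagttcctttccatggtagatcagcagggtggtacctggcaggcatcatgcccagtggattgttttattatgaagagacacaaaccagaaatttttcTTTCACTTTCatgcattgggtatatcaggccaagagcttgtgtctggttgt
Alas2: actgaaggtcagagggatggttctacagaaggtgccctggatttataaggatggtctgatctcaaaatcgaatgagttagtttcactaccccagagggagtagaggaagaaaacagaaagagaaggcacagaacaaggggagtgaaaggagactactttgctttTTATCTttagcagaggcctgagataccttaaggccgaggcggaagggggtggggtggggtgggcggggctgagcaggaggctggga
The windows of Apol11b and Apol11a were the same in 250 of 250 bases, and Apol10a matched either in 218 of 251 aligned columns (86.9%). Apol11b and Apol11a held TGATAA from −83 and the GAAA pair from −50, both on the opposite strand. Apol10a held TGATAA from −213 and the GAAA pair from −51, again on the opposite strand, and Alas2 held AGATAA from −86 on the opposite strand. Of the erythroid-high genes 218 of 286 matched a window, and 16.1% of these held AGATAA or TGATAA and 5.05% the GAAA pair, against 18.8% and 3.46% of 27025 genes.

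Among the other erythroid-high genes, Rec114, known for its role in meiotic double-strand breaks, was higher, with 691 UMIs (1318 CPM) in KO and 333 (493 CPM) in WT, a ratio of 2.34 to 3.05. It was at 3.99 CPM in KO and 1.36 in WT low-haemoglobin barcodes. Slc38a5, a glutamine transporter, had 65 UMIs in KO and 32 in WT. The translation genes lay on opposite sides: Pabpc1, the poly(A)-binding protein, had 9971 UMIs (19012 CPM) in KO and 6450 (9551 CPM) in WT, a ratio of 1.93 to 2.05, while Eif5, a factor of start-codon selection, had 1481 UMIs (2824 CPM) in KO and 3743 (5542 CPM) in WT, a ratio of 0.479 to 0.541. Both held within 85% to 95% haemoglobin, with Pabpc1 at 22221 CPM in KO and 9735 in WT and Eif5 at 2737 in KO and 5455 in WT. Cdk8, a kinase of the Mediator complex, had 27676 CPM in KO and 14532 in WT, but was also higher in low-haemoglobin KO barcodes, at 5237 CPM in KO and 1724 in WT. Alb, the hepatocyte albumin gene, passed the same selection with 54 UMIs in KO and 17 in WT and is taken up with the markers of other cells.

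**Figure D4:**
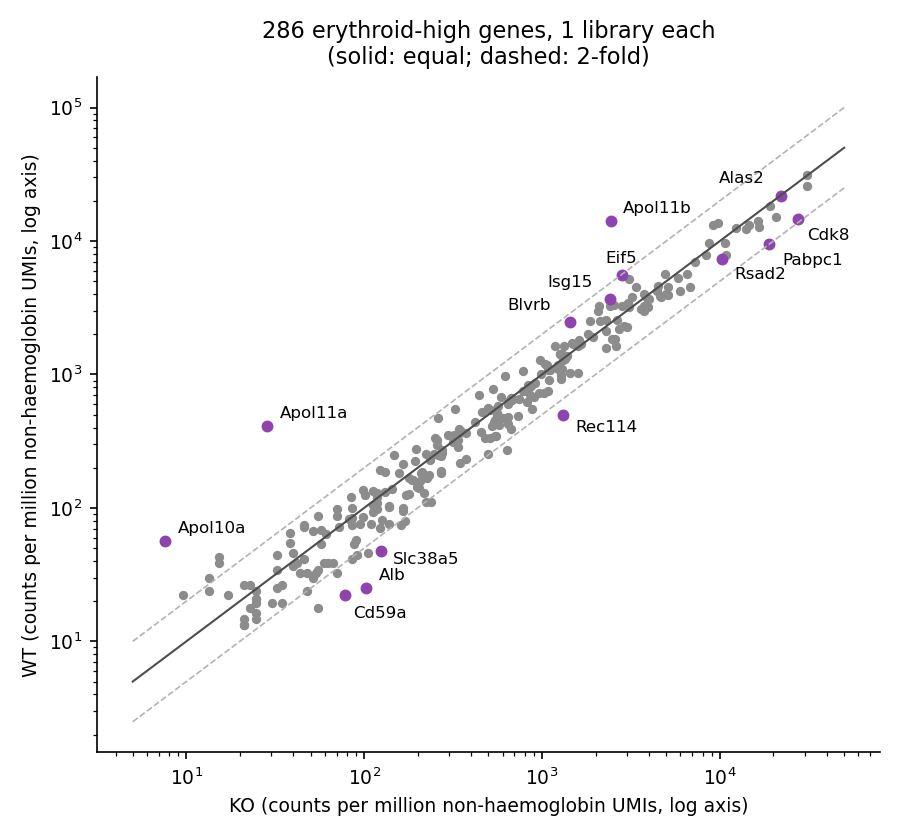
Levels of the 286 erythroid-high genes in KO (x) and WT (y) erythroid barcodes, both in CPM of non-haemoglobin UMIs on log axes, 1 point per gene; the solid line marks equal levels and the dashed lines 2-fold. Genes had to pass the 4-fold limit in both libraries, so nothing is read from how many lie between the dashed lines. Apol11b, Apol11a and Apol10a lie far on the WT side, and Rec114, Cd59a and Alb on the KO side.

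Interferon-stimulated genes showed no single direction. Type I interferon genes had 0 of 15 at least 2-fold higher and 2 at least 2-fold lower, of 24 listed, with a median of −0.03, against −0.39 in low-haemoglobin barcodes. Rsad2, the antiviral enzyme viperin, was an erythroid-high gene here, with 5405 UMIs (10306 CPM) in KO and 4986 (7383 CPM) in WT, a ratio of 1.34 to 1.45, and only 44.2 CPM in KO and 38.2 in WT low-haemoglobin barcodes. With a haemoglobin limit of 50% its log2 ratio was −0.20. Isg15, a ubiquitin-like modifier, had 1270 UMIs (2422 CPM) in KO and 2482 (3675 CPM) in WT (log2 −0.60), but 0.29 with a haemoglobin limit of 90%. The 2 genes past 2-fold were Oasl2 (78 UMIs in KO, 390 in WT) and Zbp1, a nucleic-acid sensor (3 in KO, 35 in WT).

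Interferon-gamma genes were mostly lower: 14 of 21 with the minimum, of 24 listed, were at least 2-fold lower in KO and 1 at least 2-fold higher (median −1.51). Igtp, an immunity-related GTPase, had 3 UMIs in KO and 79 in WT, and Gbp2, a guanylate-binding protein, 16 in KO and 109 in WT. Cxcl9, a T-cell chemokine that macrophages make, had 0 UMIs in KO and 42 in WT, at least 10.9-fold lower against a floor of 3 UMIs in the KO library. Socs1, a feedback inhibitor, was the gene at least 2-fold higher, with 13 UMIs in KO and 8 in WT. The list also had a median of −1.19 in low-haemoglobin barcodes. With at least 300 genes per barcode the median in erythroid barcodes was −0.47, and the log2 ratio of Gbp2 was −0.42, against −2.37 with 200 genes.

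Of the 20 genes of MHC class I presentation, all with the minimum, 16 were at least 2-fold lower and none at least 2-fold higher (median −1.20, against −0.58 in low-haemoglobin barcodes). B2m, the invariant light chain, had 304 UMIs (580 CPM) in KO and 1345 (1992 CPM) in WT, and H2-K1, a heavy chain, 385 in KO and 1068 in WT. B2m reached 34.0% of its low-haemoglobin level in KO and 77.4% in WT. After thinning to 200 UMIs, 10.1% of KO and 32.9% of WT erythroid barcodes held a B2m UMI, against 26.4% of KO and 37.6% of WT low-haemoglobin barcodes, and no expression by the erythroid cells themselves is read from these B2m shares. With a haemoglobin limit of 50% the MHC class I median was −0.52. Glycolysis genes gave a like picture, with 0 of 11 at least 2-fold higher and 8 at least 2-fold lower, of 18 listed (median −1.32, and −0.74 in low-haemoglobin barcodes), and the median was −0.47 with a haemoglobin limit of 50%. Gapdh had 38 UMIs in KO and 212 in WT.

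Markers of neutrophils differed in the same direction and by more. Summed over 8 markers, neutrophil RNA was 2337 UMIs (4456 CPM) in KO and 14406 (21332 CPM) in WT erythroid barcodes, and all 8 were at least 2-fold lower in KO (median −3.29, and −3.28 in low-haemoglobin barcodes). These sums were 34.7% of the low-haemoglobin level in KO and 29.6% in WT. S100a8, a calprotectin chain, was found in 17.9% of KO and 78.6% of WT thinned erythroid barcodes, against 18.8% of KO and 52.0% of WT thinned low-haemoglobin barcodes. Other marker sums were smaller: early myeloid genes had 2 UMIs in KO and 135 in WT, with 4 of 5 at 0 in KO. Monocyte-macrophage genes had 198 in KO and 1000 in WT, and T-cell genes 162 in KO and 471 in WT. B-cell genes had 404 in KO and 632 in WT, and hepatocyte genes, Alb included, 119 in KO and 58 in WT. Natural killer genes summed to 153 UMIs in KO and 249 in WT, plasma-cell genes to 56 in KO and 86 in WT, dendritic-cell genes to 25 in KO and 31 in WT, mast-cell and basophil genes to 2 in KO and 13 in WT, and endothelial genes to 42 in KO and 39 in WT. The macrophages of erythroblastic islands were hardly seen, with 28 UMIs in KO and 41 in WT over 7 markers, Cd163 at 0 in both libraries, and Vcam1 at 0 in KO and 4 in WT. Platelet genes summed to 3 UMIs in KO and 4 in WT, with 5 of 7 at 0 in KO and 6 of 7 in WT. At least 1 UMI of Cd3e, Cd79a, S100a8, S100a9, C1qa, Alb or Lyz2 was present in 688 of 1092 KO and 1534 of 1535 WT erythroid barcodes. What RNA of other cells contributed to the lower interferon-gamma, MHC class I, glycolysis and cell division genes was not tested.

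**Figure D5:**
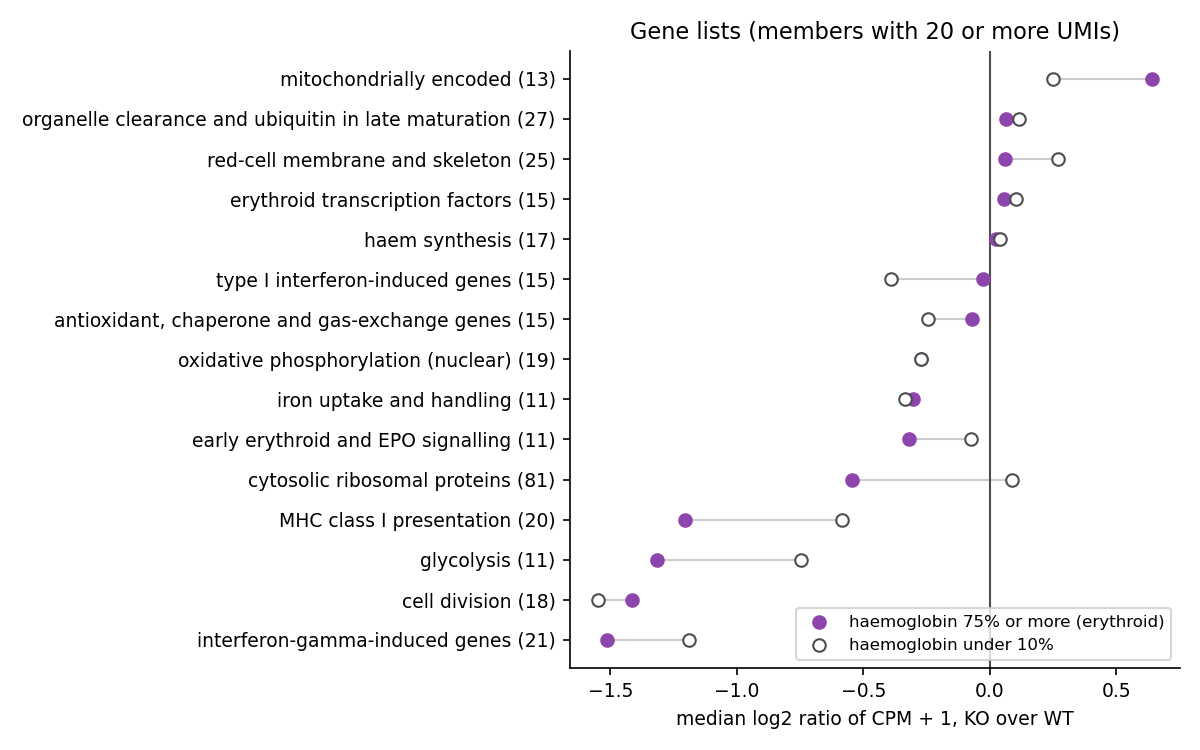
Median log2 ratio of KO over WT for 15 gene lists (genes with at least 20 UMIs, their number in brackets), in erythroid barcodes (filled) and in barcodes with under 10% haemoglobin (open). Haem synthesis, membrane, transcription factor and late-maturation lists lie near 0, mitochondrially encoded genes on the KO side at 0.64, and interferon-gamma, cell division, glycolysis and MHC class I lists below −1 in the erythroid barcodes.

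Mitochondrially encoded transcripts, which reticulocytes lose with their mitochondria, were higher in KO for all 13 genes, from 0.16 for mt-Atp8 to 1.26 for mt-Nd3, with a median of 0.64, against 0.25 in low-haemoglobin barcodes, and 0.11 with at least 300 genes. mt-Co1 had 10316 CPM in KO and 7692 in WT. The mitochondrial level also differed by haemoglobin share: mitochondrial RNA was 5.27% of non-haemoglobin UMIs in KO and 5.22% in WT at 75% to 85% haemoglobin, and 2.31% in KO and 1.77% in WT at 85% to 95%. The range of 75% to 85% held 589 KO (53.9%) and 281 WT (18.3%) erythroid barcodes. That of 85% to 95% held 503 KO (46.1%) and 1254 WT (81.7%). What this unequal mix contributed to the higher mitochondrial transcripts in KO was not tested. The share of mitochondrial UMIs was also part of the rule, as an upper limit that no barcode of 75% haemoglobin exceeded. Nuclear genes of oxidative phosphorylation showed no common direction, with 8 of 19 above 0 and 11 below, of 27 listed. Of the 19, 0 were at least 2-fold higher and 2 at least 2-fold lower. Their median was −0.27, and also −0.27 in low-haemoglobin barcodes. It was 0.01 scaled to all UMIs, 0.06 with a minimum of 100 UMIs and −0.91 with at least 300 genes. Summed over the list, the level was 3731 CPM in KO and 3569 in WT.

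Cytosolic ribosomal protein genes, whose messages disappear during reticulocyte maturation, had a median of −0.54 over 81 of 84 genes, with 72 below 0. Of these, 1 was at least 2-fold higher and 5 at least 2-fold lower. The gene that was higher was Rpl41, with 3031 UMIs (5779 CPM) in KO and 1810 (2680 CPM) in WT; Rpl15 lay at the other end, with 39 UMIs in KO and 173 in WT. The direction of the list turned round to 0.47 with a haemoglobin limit of 50%. Of the 8 listed nuclear-retained RNAs 3 reached the minimum, with 1 at least 2-fold higher and 0 lower. That was Malat1, which had 5163 UMIs (9845 CPM) in KO and 2662 (3942 CPM) in WT, a ratio of 2.38 to 2.62. Its level was 50.2% of that of low-haemoglobin barcodes in KO and 30.3% in WT. Malat1 was lower at higher haemoglobin shares. It had 14566 CPM in KO and 5885 in WT at 75% to 85%, and 4466 in KO and 3434 in WT at 85% to 95%. What the unequal mix of KO and WT barcodes over these ranges contributed was not tested.

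Of 516 genes eligible by level, detection and counting interval for the 12 largest differences each way, 249 were higher and 267 lower in KO. The 12 lowest were Atf5, Igtp, Apol11a, Ifitm6, Chil3, Apol11b, Adpgk, Gbp2, Prdx5, Dtx3l, Psmb8 and AW112010. Atf5, a transcription factor of the integrated stress response, had 10 UMIs (19.1 CPM) in KO and 296 (438 CPM) in WT, a log2 ratio of −4.45, with 4.46 CPM in KO and 4.93 in WT low-haemoglobin barcodes. With 1 CPM added, its level over that of low-haemoglobin barcodes was 3.68 in KO, just under the 4-fold that marks erythroid-high genes. It was low in KO at 75% to 85% haemoglobin, with 25.1 CPM in KO and 543 in WT, and at 85% to 95%, with 12.2 in KO and 411 in WT. Chil3, a secreted lectin of myeloid cells, and Ifitm6, an interferon-induced membrane protein, had log2 ratios of −3.37 and −3.67. Both were also lower in low-haemoglobin KO barcodes, Chil3 at 309 CPM in KO and 1107 in WT, and Ifitm6 at 127 CPM in KO and 498 in WT.

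The 12 highest were Kcnq5, Atp8a2, Pde3b, Ebf1, Bcl2, Aff3, Cux1, Ikzf3, Xylt1, Calcrl, Bank1 and Bach2, several of them known from B cells. Kcnq5, a potassium channel, had 195 UMIs in KO and 39 in WT (log2 2.67), and its level in low-haemoglobin barcodes was 1231 CPM in KO and 242 in WT. Ebf1, the B-lineage transcription factor, had 112 UMIs in KO and 37 in WT (log2 1.94), and 585 CPM in KO and 170 in WT low-haemoglobin barcodes. The 6 B-cell markers had a median log2 ratio of 0.45 in erythroid and 1.52 in low-haemoglobin barcodes, with 2 at least 2-fold higher in KO in the erythroid ones, and their part in these 12 genes was not tested. Calcrl, the receptor for adrenomedullin, was above its low-haemoglobin level in KO: it had 61 UMIs (116 CPM) in KO and 24 (35.5 CPM) in WT, against 42.9 CPM in KO and 39.2 in WT low-haemoglobin barcodes.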

How the data were processed

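The deposited files are raw UMI count matrices of 1 KO and 1 WT library (10x Genomics 3′ chemistry), made by the authors with Cell Ranger, version 8.0.1 per the file headers and 6.0.1 per the submitters' processing notes, which also name Seurat 4.3.0. Each barcode held at least 500 UMIs. Erythroid barcodes were selected by the stated rule and their counts summed per library; genes with under 20 UMIs over both libraries were left out, and the pseudocount was 1 CPM. Cell types were not otherwise clustered. Members, gene lists and alternatives were chosen with earlier results of these data known. The names in the text come from 17 gene lists, the marker lists, the 15 genes highest in each library and the 12 highest and 12 lowest ratios among genes with at least 50 UMIs, 100 CPM and a UMI in 5% of barcodes of the higher library. Of 33696 genes in the files, 52 share a symbol.

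Ratios have exact conditional binomial intervals, sums exact Poisson and shares exact Clopper-Pearson intervals (scipy 1.17.1). Only the ratio intervals were checked, on simulated Poisson counts that hold no spread between barcodes or mice. Scrublet, through scanpy 1.11.5, marked 11.6% of KO and 15.3% of WT barcodes as doublets but only 15 KO (1.37%) and 28 WT (1.82%) erythroid ones; they were kept, and removed as an alternative. TMM (edgeR 4.0.16) and DESeq2 1.42.0 gave alternative size factors only, with no test. Promoter windows came from RefSeq, matched by symbol. Some listed genes are not reported here.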

Additional observations from a re-analysis of the deposited data

Results flagged for a closer look

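Ube2c had a log2 ratio of KO over WT of 0.69 in erythroid barcodes and of −2.04 in barcodes with under 10% haemoglobin. It is listed here because the ratio had opposite signs in the 2 classes of barcodes. The difference between the classes was not tested, since each genotype is 1 library.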

How the results depend on the processing

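No paired analysis was possible because each genotype is 1 library and the labels carry no replicate numbers; for the same reason no library could be left out. Of 269 recomputed counts, medians and shares, 221 stayed within their allowed spread, 46 moved and 2 were counted as turned in sign. Of 375 values of single genes and of the median of all genes, 278 stayed, 93 moved and 4 were counted as turned. A turn was counted only where the main value exceeded its allowed spread. Other changes of sign are therefore among those that stayed or moved. For gene lists that spread was the median reach, to either side, of the members' counting intervals. It was 1.19 log2 units for interferon-gamma genes, so wide changes could count as stayed. Apol11b was lower in KO and alpha over beta globin higher in KO under every alternative that gave them a value. The cause of the changes below was not tested, except that fewer or more genes are counted where the minimum or the gene set changes. Counts of genes at least 2-fold higher and lower in KO were 48 and 115 with a minimum of 100 UMIs, 2098 and 3731 with none, 169 and 360 with a pseudocount of 10 CPM, 184 and 349 after thinning to 200 UMIs, 1651 and 321 with a haemoglobin limit of 50%, 38 and 138 with 90%, and 13 and 7 among erythroid-high genes, an alternative chosen after seeing the data. The lower genes alone moved to 239 when scaled to all UMIs, 1095 with a limit of 100 genes, 164 with 300 genes and 1059 in barcodes of under 200 genes, also chosen after seeing the data. Scaled to all UMIs, medians became −0.017 for iron, 0.35 for late maturation, 0.90 for mitochondrially encoded and −0.25 for ribosomal protein genes. A limit of 50% haemoglobin gave −0.49 for membrane (Slc4a1 −0.50), −0.49 for antioxidant, −0.52 for late maturation, −0.52 for MHC class I, 0.39 for mitochondrially encoded and 0.47 for ribosomal protein genes, and −0.20 for Rsad2. A limit of 90%, which left 55 KO and 269 WT barcodes, gave 0.56 for haem synthesis, 0.26 for iron, 0.46 for membrane, 0.27 for late maturation, −0.14 for cell division and 0.29 for Isg15. A limit of 300 genes gave −0.67 for membrane (Slc4a1 −0.66), −0.47 for antioxidant, −0.52 for late maturation, −0.91 for nuclear oxidative phosphorylation and 0.11 for mitochondrially encoded genes. The mitochondrially encoded median was 0.27 with 100 genes, 0.81 without marked doublets, 0.84 after thinning and 0.44 in barcodes of under 200 genes, where late maturation was 0.34. Shares of barcodes with a UMI, KO minus WT, were −50.5 points for Apol11b and −11.9 for B2m after thinning to 100, and −31.9 for B2m, 11.95 for Malat1 and −2.78 for Mki67 unthinned. Leaving out every barcode with a UMI of the 7 leukocyte and hepatocyte genes kept 1 WT barcode and gave no value. Genes under about 20 UMIs in both libraries have wide counting intervals at this depth, and their order is uncertain.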
